A study of Mus musculus with 16 samples.

Results

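Type 2 conventional dendritic cells (cDC2) are the branch of conventional DCs that displays extracellular antigen on MHC class II to CD4+ T cells. They are known for the transcription factor IRF4, the surface proteins SIRPα and CD11b (Itgam) and the C-type lectins CD209a, CLEC10A and MGL2, and they lack XCR1 and CLEC9A, which mark type 1 cells (cDC1). In inflamed tissue and in tumors they share many transcripts with DCs that arise from monocytes, so the border between these populations is not sharp at the level of RNA.

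cDC2 were examined in single-cell RNA sequencing libraries of live CD45+ cells sorted from mouse tumors. The tumors were MC38, a colorectal carcinoma line, and Panc02-SIY, a pancreatic adenocarcinoma line that carries the model antigen SIY, both grown in C57BL/6J mice, which the study's methods give as 6 to 8 weeks old. Tumors were left untreated (NT) or were given 12 Gy in vivo (RT) and were taken 24 h later, with 4 libraries in each of the 4 groups. The study's methods give fewer animals per group than the labels give libraries, and neither says which animal a library came from, so p-values measure the spread between libraries. Total counts ran from 3240877 to 43776342 UMIs (unique molecular identifiers, each standing for 1 captured RNA molecule) per library.

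Members were chosen by the UMI counts of marker genes. From barcodes with 500 or more genes and no more than 10% mitochondrial UMIs, a barcode was taken as a cDC2 when it held at least 10 UMIs of H2-Ab1 and at least 1 UMI of Zbtb46, Flt3 or Cd209a. It also had to have no UMI of Xcr1, Clec9a, Fscn1 (a marker of mature DCs), Cd79a, Cd3d, Cd3e or Fcrl5, and fewer than 2 C1q UMIs per 1000. These 14 genes chose the cells, and their levels are given below as a description only. The gate took 138 of 16350 kept barcodes, 40 from MC38 and 98 from Panc02-SIY. By library, in the order of replicates 1 to 4, untreated MC38 tumors gave 5, 1, 10 and 7 cells and irradiated ones 2, 2, 4 and 9. Untreated Panc02-SIY tumors gave 4, 4, 9 and 8 cells and irradiated ones 8, 15, 22 and 28. Members had a median of 26715 UMIs in MC38 and 12308 in Panc02-SIY. Their median H2-Ab1 count was 81.5 UMIs, 9 cells lay just inside the limit at 10 to 14 UMIs, and 10 barcodes that met every other condition lay just outside at 5 to 9.

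Several properties of these cells bear on every value that follows. To begin with, libraries of 1 tumor line shared cell barcodes. In MC38, 1005 of 1596 distinct barcodes that passed the filter occurred in 2 or more libraries, and so did the barcodes of 30 of the 40 cDC2 (75.0%). In Panc02-SIY the corresponding numbers were 63 of 14754 barcodes and 2 of 98 cDC2 (2.04%). Each shared barcode was counted once, in the library of its tumor line where it had the most UMIs, so the MC38 libraries were not cleanly separate samples.

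In addition, many cells carried monocyte transcripts. Fcgr1, which encodes the Fc receptor CD64 of monocytes and macrophages, was detected in 33 of 40 cDC2 from MC38 (82.5%) and in 47 of 98 from Panc02-SIY (48.0%). The share was 84.0% of 25 cDC1 in MC38 (median 26839 UMIs) and 20.5% of 156 cDC1 in Panc02-SIY (14984 UMIs), and 0.705% of 4399 Panc02-SIY T cells (6891 UMIs), which should lack the gene. Ly6c2 or Fcgr1 was present in 35 cDC2 from MC38 (87.5%) and in 60 from Panc02-SIY (61.2%). Pooled over libraries, Ly6c2 stood at 334 CPM (counts scaled to the same total per library) in MC38 cDC2 and 176 CPM in Panc02-SIY cDC2, against 3425 and 1754 CPM in barcodes gated as monocytes, for which Ly6c2 was a gate gene. The summed CPM of 8 monocyte markers, with Plac8 the most abundant, was 4290, 1423, 4514 and 3099 in untreated and 12613, 3513, 5123 and 2848 in irradiated MC38 cDC2. It was 2774, 3934, 5444 and 3346 in untreated and 5520, 5883, 3695 and 5742 in irradiated Panc02-SIY cDC2. The marker sums of this paragraph are over all members. Without the cells above 40000 UMIs described below, the monocyte sum was 5600 in untreated Panc02-SIY replicate 4. It was then 7431 and 4403 in irradiated Panc02-SIY replicates 2 and 3 and 3470 in irradiated MC38 replicate 4. The sum of 9 macrophage markers over all members, led by Apoe, was 914, 463, 3548 and 999 CPM in untreated and 1266, 917, 1227 and 777 CPM in irradiated MC38 cDC2. It lay between 376 and 886 CPM in all Panc02-SIY libraries. The part of monocyte-derived cells in the results was not tested.

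Finally, 5 cells held more than 40000 UMIs. They had between 0.175 and 0.795 H2-Ab1 UMIs per 1000, against a median of 6.61 and a lowest value of 0.349 in the other 133 cells. One of them, in irradiated MC38 replicate 4, held 63007 UMIs, of which 2089 were Gzmc, 250 Xcl1 and 194 the 4 natural killer (NK) cell markers, and it supplied 24.9% of that library's cDC2 UMIs. No other member had more than 1 Gzmc UMI, although 1 of them held 51 UMIs of the NK cell markers. The other 4 came from Panc02-SIY, where they supplied 50.2% of the cDC2 UMIs of untreated replicate 4, 26.1% of irradiated replicate 2 and 18.2% of irradiated replicate 3. They held 18 and 0, 10 and 23 UMIs of the tumor or stroma markers Krt8 and Krt18, in that order of libraries. Without them the summed CPM of 6 such markers fell from 356 to 75.7, from 153 to 5.29 and from 114 to 36.8. Untreated Panc02-SIY replicate 2, which had no such cell, stood at 423 CPM. Gene comparisons are therefore given from 2 fits. The first used the 10 libraries with at least 5 members, which left irradiated replicate 4 as the only irradiated MC38 library, assumed to vary like the libraries of the other groups. The other, added after the first results were seen, used all 16 libraries without these 5 cells.

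The name cDC2 was checked against markers that the gate did not use. Sirpa was detected in 34 of 40 MC38 and 81 of 98 Panc02-SIY members, Itgam in 36 and 72, Clec10a in 20 and 62, Mgl2 in 22 and 20, and Irf4 in 15 and 41. Irf8, a transcription factor best known from cDC1, was detected in 34 and 72 members and stood at 218 and 313 CPM, above Irf4 at 43.0 and 69.5 CPM and below Irf8 in cDC1 at 820 and 1428 CPM. In T cells of Panc02-SIY, Sirpa was detected in 3.77%, Itgam in 3.09% and Clec10a in 0.273%. Other myeloid cells of MC38 carried Sirpa and Itgam too, and Sirpa was detected in 86.9% of C1q-rich macrophages and 80.0% of cDC1 and Itgam in 82.1% of macrophages and 83.5% of monocytes. Of 12 cDC2 markers, which include the gate genes H2-Ab1 and Cd209a, between 6 and 12 were detected per library, and Clec4a4 had no UMI in MC38 and 2 in Panc02-SIY. Mgl2 stood at 499 CPM in MC38 and 114 CPM in Panc02-SIY cDC2, against 91.2 and 53.3 CPM in C1q-rich macrophages and 6.08 and 2.00 CPM in monocytes. H2-DMb2, a chaperone subunit that helps load peptide onto MHC class II, stood at 465 and 117 CPM, against 494 and 176 CPM in mature DCs, 235 and 78.1 CPM in cDC1 and 36.5 and 27.6 CPM in macrophages. Sirpa and Itgam did not set cDC2 apart from other myeloid cells. Sirpa stood at 121 and 183 CPM against 246 and 602 CPM in macrophages and 148 and 230 CPM in monocytes, and Itgam at 140 and 181 CPM against 327 and 317 CPM in monocytes. Cd209a, a gate gene, had 338 CPM in MC38 and 858 CPM in Panc02-SIY cDC2 and at most 94.5 CPM in the cDC1, macrophage and monocyte gates. It was found in 21 of 40 MC38 cells (52.5%), 82 of 98 Panc02-SIY cells (83.7%) and 0.250% of Panc02-SIY T cells.

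**Figure D1:**
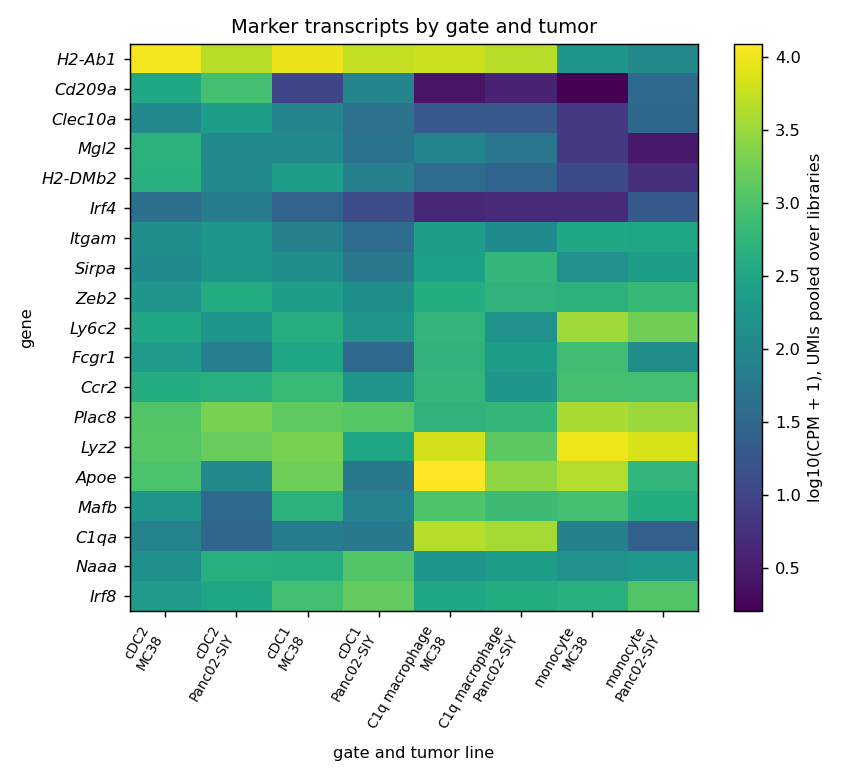
Marker transcripts in cDC2 and in the cDC1, C1q macrophage and monocyte gates of each tumor line, as log10(CPM + 1) of UMIs pooled over libraries; rows are genes, columns are gate and tumor line. Cd209a was highest in the cDC2 columns (338 CPM in MC38, 858 CPM in Panc02-SIY), C1qa in the macrophage columns (4648 and 3725 CPM) and Ly6c2 in the monocyte columns (3425 and 1754 CPM); H2-Ab1, Cd209a, C1qa and Ly6c2 were themselves gate genes of at least 1 column.

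The first comparison asked whether radiation changed the share of cDC2 among CD45+ cells. In Panc02-SIY it rose. cDC2 made up 0.467, 0.240, 0.661 and 0.229% of kept barcodes in untreated tumors (0.399% ± 0.206, SD, n = 4) and 0.993, 0.828, 1.07 and 1.04% in irradiated tumors (0.983% ± 0.108, SD, n = 4). Every irradiated library was above every untreated one. The difference of 0.583 percentage points had p = 0.0286 in a two-sided exact permutation test over libraries, the smallest value that 4 against 4 libraries allow, and an adjusted p of 0.0381 over 4 comparisons. The rise no longer passed when the gate was applied after thinning each barcode to 2000 UMIs (0.456 points) or on barcodes found in only 1 library, a setting added after the first results were seen (0.559 points; adjusted p = 0.114 for both, exact permutation). Among cDC2 without any Ly6c2 or Fcgr1 UMI the mean share was 0.319% in irradiated and 0.216% in untreated tumors, a difference of 0.103 points (exact permutation p = 0.343, adjusted p = 0.800).

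In MC38 no change was detectable. The shares were 3.03, 0.800, 4.65 and 2.30% in untreated tumors (2.69% ± 1.60, SD, n = 4) and 2.67, 1.65, 1.78 and 2.47% in irradiated tumors (2.14% ± 0.501, SD, n = 4), and all irradiated values fell within the untreated range (difference -0.553 points, exact permutation p = 0.571). Few cells stood behind each value. The single cell of untreated replicate 2, for example, gave a 95% exact binomial interval of 0.0203 to 4.38%, which covers counting error only. The radiation effects in the 2 tumor lines differed by -1.14 points, which was within what regrouping libraries gave (exact permutation p = 0.198).

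cDC2 were a larger share of barcodes in MC38 than in Panc02-SIY, by 2.29 points without and 1.16 points with radiation, each with p = 0.0286 by exact permutation and an adjusted p of 0.0381. Kept barcodes held a median of 21677 UMIs in MC38 tumors against 6380 in Panc02-SIY tumors. These medians follow the rule that kept only the copy of a shared barcode with the most UMIs. That rule kept 1596 of 7360 filtered barcodes in MC38 and 14754 of 14945 in Panc02-SIY. Over all called barcodes the order was the other way, with library medians of 1419 to 2070.5 UMIs in MC38 and 3175 to 6412 in Panc02-SIY. With every copy of a shared barcode kept, the call stayed in untreated tumors (1.28% against 0.392%, difference 0.884 points, exact permutation p = 0.0286, adjusted p = 0.0571) and was lost in irradiated tumors, where the means were 0.906% in MC38 and 0.969% in Panc02-SIY (difference -0.0626 points, exact permutation p = 0.914). Neither call stayed under 3 other settings. On barcodes found in only 1 library the difference was 0.518 points in untreated (p = 1.00, exact permutation) and -0.184 points in irradiated tumors (p = 0.8286, exact permutation). With the gate applied after thinning the differences were 0.911 points (exact permutation p = 0.143, adjusted p = 0.267) and 0.940 points (exact permutation p = 0.200, adjusted p = 0.267). Among cells without Ly6c2 or Fcgr1 UMIs the mean shares were 0.198% in MC38 and 0.216% in Panc02-SIY in untreated tumors, and 0.429% and 0.319% in irradiated tumors (exact permutation p = 0.600, adjusted p = 0.800).

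Relative to all gated DCs (cDC2, 181 cDC1 and 21 mature DCs), cDC2 made up 28.4% ± 12.2 (SD, n = 4) in untreated and 47.4% ± 7.02 (SD, n = 4) in irradiated Panc02-SIY tumors, a difference of 19.0 points that missed the threshold of 0.1 after adjustment (exact permutation p = 0.0571, adjusted p = 0.171). In MC38 the shares were 54.8% ± 15.1 and 49.1% ± 6.72 (SD, n = 4 each; exact permutation p = 0.571). These MC38 shares rest on few cells, with 3 gated DCs in untreated replicate 2 and 4 each in irradiated replicates 1 and 2. The difference between the 2 radiation effects was -24.7 points, with MC38 below Panc02-SIY (exact permutation p = 0.0457 over 4900 regroupings, not adjusted). Without Ly6c2 or Fcgr1 cells the effects were 5.42 points in MC38 and 3.95 points in Panc02-SIY, so the direction of the difference turned, and after thinning they were 35.1 points (3 irradiated libraries against 4 untreated) and 44.0 points.

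**Figure D2:**
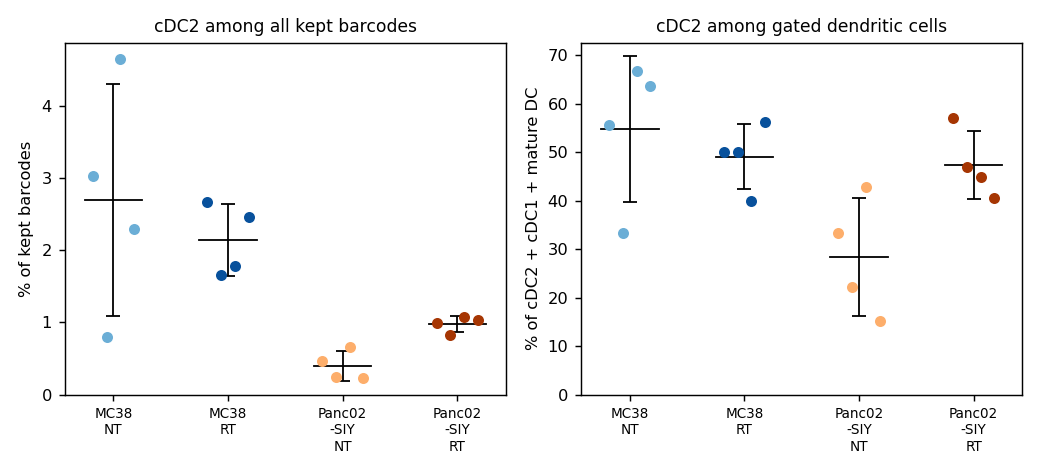
cDC2 as a percentage of kept barcodes (left) and of gated cDC2, cDC1 and mature DCs (right), with 1 point per library and the mean and SD of 4 libraries per group. In Panc02-SIY all irradiated libraries lay above all untreated ones on the left (0.828 to 1.07% against 0.229 to 0.661%), while the MC38 groups overlapped in both panels.

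The second comparison asked how cDC2 differed between the tumor lines. This was the strongest contrast in gene expression. In untreated tumors 115 of 8576 genes passed the test (edgeR quasi-likelihood, adjusted p below 0.1 and fold change above 1.3), 69 higher and 46 lower in MC38 (1.34%). In irradiated tumors 153 genes passed, 121 higher and 32 lower in MC38 (1.78%), several of them transcripts of the 1 cell with NK genes. In the added fit without the deep cells, which tested 5770 genes, 194 passed in untreated tumors (3.36%; 100 higher, 94 lower) and 278 in irradiated tumors (4.82%; 142 higher, 136 lower), and 72 and 82 genes passed in both fits. MC38 cells also held more UMIs per cell, and after thinning every cell to 2000 UMIs 30 and 22 genes passed. The gap in UMIs per cell was measured after the rule that kept the copy of a shared barcode with the most UMIs. The part of depth in the difference was not tested.

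Part of the MHC class II presentation list was higher in MC38 cDC2. Of 14 list genes tested, 7 passed in untreated and 5 in irradiated tumors, all higher in MC38 (added fit, 5 and 6). Over all genes 1.34 and 1.78% passed (added fit, 3.36 and 4.82%). The log2 difference was above 0 for 12 and 11 of the 14 genes (added fit, 11 and 10). The median log2 difference of the list was 1.18 in untreated and 0.96 in irradiated tumors, against -0.05 and -0.10 over all genes tested. H2-Ab1 itself was a gate gene and was left out. Levels below are CPM per library without the 5 deep cells, and the log2 differences and adjusted p-values are those of the 10-library edgeR fit unless stated. That fit keeps the deep cells, so its differences are not ratios of the printed levels.

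H2-Eb1, the beta chain of the MHC class II molecule I-E, stood at 9724, 9528, 8530 and 10968 CPM in untreated and 7883, 14795, 8860 and 12547 CPM in irradiated MC38 cDC2. In Panc02-SIY it stood at 2954, 3173, 3469 and 4098 CPM in untreated and 3729, 4443, 3815 and 3419 CPM in irradiated cDC2. The tumor lines did not overlap. Of the 5770 genes of the added fit, 3.93% in untreated and 2.56% in irradiated tumors had every MC38 library above every Panc02-SIY library. The log2 difference of H2-Eb1 was 1.82 ± 0.21 (SE, edgeR adjusted p = 0.00015) in untreated and 1.77 in irradiated tumors. H2-Aa, the alpha chain of I-A, averaged 9860 ± 1183 CPM in MC38 and 5179 ± 821 CPM in Panc02-SIY untreated cDC2, and 10766 ± 2243 against 6002 ± 623 CPM after radiation (SD, n = 4 each). Its log2 differences were 1.25 ± 0.25 (edgeR adjusted p = 0.0243) in untreated tumors and, with 1 MC38 library in the fit, 1.02 in irradiated tumors. The added fit gave differences of 1.60 and 1.66 for H2-Eb1 and 1.03 and 0.98 for H2-Aa. The H2-Aa call was lost in untreated tumors without Panc02-SIY replicate 4 (0.77, edgeR adjusted p = 0.114), and the difference was 1.99 without Panc02-SIY replicate 3. After radiation the call was lost in 7 of the 9 fits that left out 1 library.

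Cd74, the invariant chain that escorts MHC class II, averaged 27543 ± 1198 CPM in MC38 and 15474 ± 3217 CPM in Panc02-SIY untreated cDC2 (SD, n = 4 each; log2 difference 1.05 ± 0.20, adjusted p = 0.0146), and the irradiated libraries differed in the same direction (1.15 ± 0.23, adjusted p = 0.0112). Ctss, the protease that trims the invariant chain, averaged 2679 ± 551 against 1385 ± 105 CPM (SD, n = 4 each; 1.64 ± 0.26, adjusted p = 0.00273 untreated; 1.09 ± 0.28, adjusted p = 0.0574 irradiated). H2-DMb2 passed in both treatments in this fit (3.30 ± 0.43, adjusted p = 0.000469; 2.54 ± 0.36, adjusted p = 0.000601) but not in the added fit (adjusted p = 0.104 and 0.152), where untreated MC38 replicate 2, with 1 cell, had 33.1 CPM and lay below the untreated Panc02-SIY values of 55.4 to 141 CPM. The added fit gave 0.93 and 1.02 for Cd74 and 1.09 and 0.86 for Ctss. The untreated Cd74 difference was 0.68 without Panc02-SIY replicate 4, where the call was lost (edgeR adjusted p = 0.114), and 1.58 without replicate 3, and the irradiated Ctss call without irradiated Panc02-SIY replicate 3 or untreated MC38 replicate 4 (edgeR adjusted p up to 0.171). Of 16 MHC class I genes tested, H2-Q7 passed in untreated tumors and H2-D1 and Pdia3 in irradiated tumors, all higher in MC38, where 1.34 and 1.78% of all genes passed. The H2-Q7 call was lost when replicate 1 of MC38 NT or replicate 3 of Panc02-SIY NT was left out, with values from 1.62 to 2.64 without 1 library. Leaving out 1 library lost the H2-D1 call in 4 and the Pdia3 call in 6 of 9 fits (edgeR adjusted p up to 0.189). H2-K1, H2-D1 and H2-Q7 passed in the added fit in untreated tumors and these with Pdia3 in irradiated tumors, again all higher in MC38.

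The genes with the largest differences lay outside antigen presentation. Qpct, glutaminyl-peptide cyclotransferase, had 338, 198, 201 and 423 CPM in untreated and 191, 655, 795 and 462 CPM in irradiated MC38 cDC2. In Panc02-SIY it had 0, 14.1, 0 and 10.8 CPM and, after radiation, 9.23, 42.3, 44.9 and 62.6 CPM (log2 differences 6.39 ± 0.80, adjusted p = 0.000373, and 3.47 ± 0.47, adjusted p = 0.000354). Without untreated Panc02-SIY replicate 4 the untreated value was 9.11. Dcstamp, a membrane protein of cell fusion in myeloid cells, was detected in all untreated MC38 libraries (83.6 to 198 CPM) and in no Panc02-SIY library. Measured against the level that 3 counts over the group would give, it was at least 11.2-fold higher in untreated MC38 and at least 10.6-fold higher in irradiated MC38, where only replicate 4 had counts (68.2 CPM). The bounds were no lower than 7.36-fold and 6.42-fold without 1 other library, and no irradiated bound could be given without irradiated MC38 replicate 4. The lowest came without untreated Panc02-SIY replicate 3 and irradiated Panc02-SIY replicate 4. Other genes among the 8 largest differences higher in untreated MC38 were Trem2, Trp53i11, Pxdc1, Cfb, Trem1 and Pag1. Each of these 6 calls was lost when Panc02-SIY NT replicate 4 was left out, and in 2 to 5 of 10 such fits in all. Trem2, Trp53i11, Trem1 and Pag1 passed in the added fit, Cfb did not (adjusted p = 0.259) and Pxdc1 was not tested there. In irradiated tumors Klra7, a receptor gene known from NK cells, was also among the 8 largest, with 410 CPM in MC38 replicate 4, 0 CPM without its deep cell, and none in the other irradiated MC38 libraries.

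Cytokine and chemokine genes were read against the 1.34 and 1.78% of all genes that passed (3.36 and 4.82% in the added fit). Of 24 cytokine and chemokine genes tested, Cxcl16 passed in untreated tumors, and Cxcl16, Il1b and Il1a passed in irradiated tumors, all higher in MC38, while the list median was 0.10 in untreated and -0.59 in irradiated tumors. The medians were -0.12 and 0.69 in the added fit, where Il1a and Cxcl16 passed in untreated tumors and Il1b, Il1a, Tnfsf9, Ccl17 and Cxcl16 in irradiated tumors, of 21 tested. Cxcl16, the ligand of CXCR6, averaged 505 ± 134 CPM in MC38 and 75.9 ± 51.9 CPM in Panc02-SIY untreated cDC2 (SD, n = 4 each; log2 difference 2.54 ± 0.57, adjusted p = 0.0548), and 865 ± 268 against 84.9 ± 58.6 CPM after radiation (2.76 ± 0.54, adjusted p = 0.0193). The untreated call was lost when replicate 1 or 4 of MC38 NT or replicate 3 or 4 of Panc02-SIY NT was left out (edgeR adjusted p up to 0.315). Il1b, encoding interleukin-1β, had 6999, 2619, 8996 and 4740 CPM in irradiated MC38 cDC2 and 1366, 1164, 1532 and 1583 CPM in irradiated Panc02-SIY cDC2. These values did not overlap, and 2.56% of the 5770 genes of the added fit separated in that direction. Il1b had a log2 difference of 1.81 in the 10-library fit, again with 1 irradiated MC38 library. In untreated tumors its libraries overlapped (adjusted p = 0.290). Il1a had no count in any Panc02-SIY library and was at least 4.98-fold higher in untreated and at least 19.5-fold higher in irradiated MC38 cDC2 by the same floor of 3 counts, although irradiated MC38 replicate 2 also had none. The bounds fell to 3.02-fold without untreated MC38 replicate 1 (8.96-fold without replicate 3), to 3.27-fold without untreated Panc02-SIY replicate 3, and to 6.78-fold without irradiated MC38 replicate 4 or 11.8-fold without irradiated Panc02-SIY replicate 4. The irradiated Il1a call was lost without untreated MC38 replicate 4 (edgeR adjusted p = 0.116).

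Of 19 glycolysis and hypoxia genes, Eno1 passed in untreated tumors and Gapdh, Eno1 and Ldha in irradiated tumors, all higher in MC38 (list medians 1.02 and 1.07; 1.34 and 1.78% of all genes passed). The medians were 0.32 and 1.04 in the added fit, where 4 of 18 genes passed in untreated tumors (Gapdh, Eno1 and Ldha higher and Ndrg1 lower in MC38) and 6 in irradiated tumors, all higher. Leaving out 1 library lost the Eno1 call in 2 of 10 fits in untreated tumors, those lacking replicate 3 of MC38 NT or of Panc02-SIY NT, with values from 1.15 to 2.13, and in 4 of 9 fits in irradiated tumors. Gapdh averaged 1423 ± 285 CPM in irradiated MC38 and 545 ± 138 CPM in irradiated Panc02-SIY cDC2 (SD, n = 4 each). Its log2 difference was 1.65 in the 10-library fit, which held 1 irradiated MC38 library.

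Other genes were higher in Panc02-SIY. Ffar2, the receptor for short-chain fatty acids and a gene of the cDC2 identity list, had no count in untreated MC38 and 0, 21.8, 0 and 5.25 CPM in irradiated MC38 cDC2. In Panc02-SIY it had 22.4, 28.2, 36.9 and 64.9 CPM and, after radiation, 64.6, 153, 147 and 131 CPM. The tumor lines did not overlap in either treatment. Of the 5770 genes of the added fit, 4.87% in untreated and 10.3% in irradiated tumors were lower in every MC38 library. Ffar2 passed in both treatments (edgeR adjusted p = 0.0254 in untreated tumors; log2 difference -4.34 in irradiated tumors, with 1 MC38 library in that fit). By the floor of 3 counts over the group it was at least 8.12-fold lower in untreated MC38. Without untreated MC38 replicate 3 that bound was 4.03-fold and the untreated call was lost (edgeR adjusted p = 0.130). Ffar2 was the only one of 26 identity genes tested that passed in this fit, where 1.34 and 1.78% of all genes passed. Of 25 in the added fit, Ffar2 alone passed in untreated tumors. In irradiated MC38, Ccl17 passed higher and Zeb2 and Ffar2 lower there (3.36 and 4.82% of all genes in the 2 treatments). Marcks, a substrate of protein kinase C, was chosen after its values were seen. It averaged 110 ± 32.9 CPM in MC38 and 530 ± 102 CPM in Panc02-SIY untreated cDC2 (SD, n = 4 each; -2.24 ± 0.30, edgeR adjusted p = 0.000469). After radiation it averaged 143 ± 59.6 against 607 ± 49.4 CPM (SD, n = 4 each). The log2 difference there was -2.62, with 1 irradiated MC38 library in the fit. Cd72, a lectin-like receptor also chosen after its values were seen, went the other way, with 279 ± 117 against 35.1 ± 25.4 CPM in untreated cDC2 (SD, n = 4 each; 4.07 ± 0.62, adjusted p = 0.00231). Other genes among the 8 largest differences lower in untreated MC38 were Ubd, Enc1, Cd7, Syne2, Irgm2, Nod1 and Ttc3. Leaving out 1 library lost the Ubd call in 6 of 8 fits, Syne2 in 6, Enc1 in 5 and Nod1 and Ttc3 in 3 of 10 fits each, and all but Ubd of these were lost when Panc02-SIY NT replicate 4 was left out. The Enc1 value ran from -7.91 to -4.99 in these fits. Cd7, Irgm2 and Nod1 passed in the added fit, and the other 4 were not tested there. Clec4a1, F13a1, Clec4a3, Dok2, Krt80, Sdc4 and Abce1 were the others among the 8 lower in irradiated MC38, a contrast with 1 irradiated MC38 library. Of these, F13a1 alone passed in the added fit, with adjusted p-values of 0.404 for Clec4a1, 0.728 for Clec4a3 and 0.572 for Sdc4.

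Genes of other myeloid cells were read against the shares of all genes that passed between the tumor lines (1.34 and 1.78%; 3.36 and 4.82% in the added fit). Of 22 macrophage list genes, Trem2 and Slamf9 passed in untreated and Slamf9 in irradiated tumors, all higher in MC38, and the list medians were 0.78 and 0.41. Slamf9 had 144 to 331 CPM in untreated MC38 and 0 to 89.5 CPM in untreated Panc02-SIY cDC2. Both untreated calls were lost when MC38 NT replicate 3 or Panc02-SIY NT replicate 4 was left out (edgeR adjusted p up to 0.131 for Slamf9 and 0.216 for Trem2). Of 18 macrophage genes in the added fit, 2 passed in each treatment. Of 17 monocyte genes, F13a1, a coagulation factor subunit, was the only one that passed, lower in MC38 in both treatments, and the list medians were 0.20 in untreated and -0.80 in irradiated tumors. In the added fit the medians were -0.18 and 0.35, and among the genes that passed were Fcgr1 and Cd14, higher in untreated MC38, and F13a1, lower in MC38 in both treatments. The untreated F13a1 call of the 10-library fit was lost in 4 of 10 fits that left out 1 library, namely those lacking replicate 1 or 4 of MC38 NT or replicate 3 or 4 of Panc02-SIY NT. Fcgr1 averaged 224 ± 84.8 CPM in MC38 and 60.7 ± 33.4 CPM in Panc02-SIY untreated cDC2 (SD, n = 4 each), missed the threshold in the 10-library fit (adjusted p = 0.128) and passed in the added fit (log2 difference 2.02 ± 0.46, adjusted p = 0.0134). The part of macrophage and monocyte RNA in the tumor difference was not tested.

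Interferon-stimulated genes and the remaining lists were read against the 1.34 and 1.78% of all genes that passed (3.36 and 4.82% in the added fit). Of 59 interferon-stimulated genes tested, Oas1a and Phf11d passed higher and Gbp3 and Gbp7 lower in untreated MC38. Isg20 and Usp18 passed higher in irradiated MC38. Leaving out 1 library lost all of these calls but that of Gbp7 in at least 1 fit. In the added fit 3 of 57 genes passed in each direction in untreated and 1 in each direction in irradiated tumors. Of 21 immediate early genes, Klf6 passed in the 10-library fit, lower in untreated MC38, and Atf3 and Btg2, higher in irradiated MC38. These 3 calls were lost in 6 of 10, 4 of 9 and 5 of 9 fits that left out 1 library. Egr2 and Btg2 passed of 20 in the added fit, both higher in irradiated MC38. Of 27 maturation genes, Tnfrsf9 passed higher and Nfkb1 lower in irradiated MC38, and none passed in untreated tumors. In the added fit, of 20, Socs1 passed lower in untreated MC38. Ccl17 passed higher and Cd274, Nfkb1 and Birc3 lower in irradiated MC38 there. Trp53i11, 1 of 34 p53 genes tested, passed higher in MC38 in both treatments of the 10-library fit. Among MHC class II genes, Lgmn and H2-DMb1 were also called in untreated tumors, and lost the call in 4 and 7 of 10 fits that left out 1 library.

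**Figure D3:**
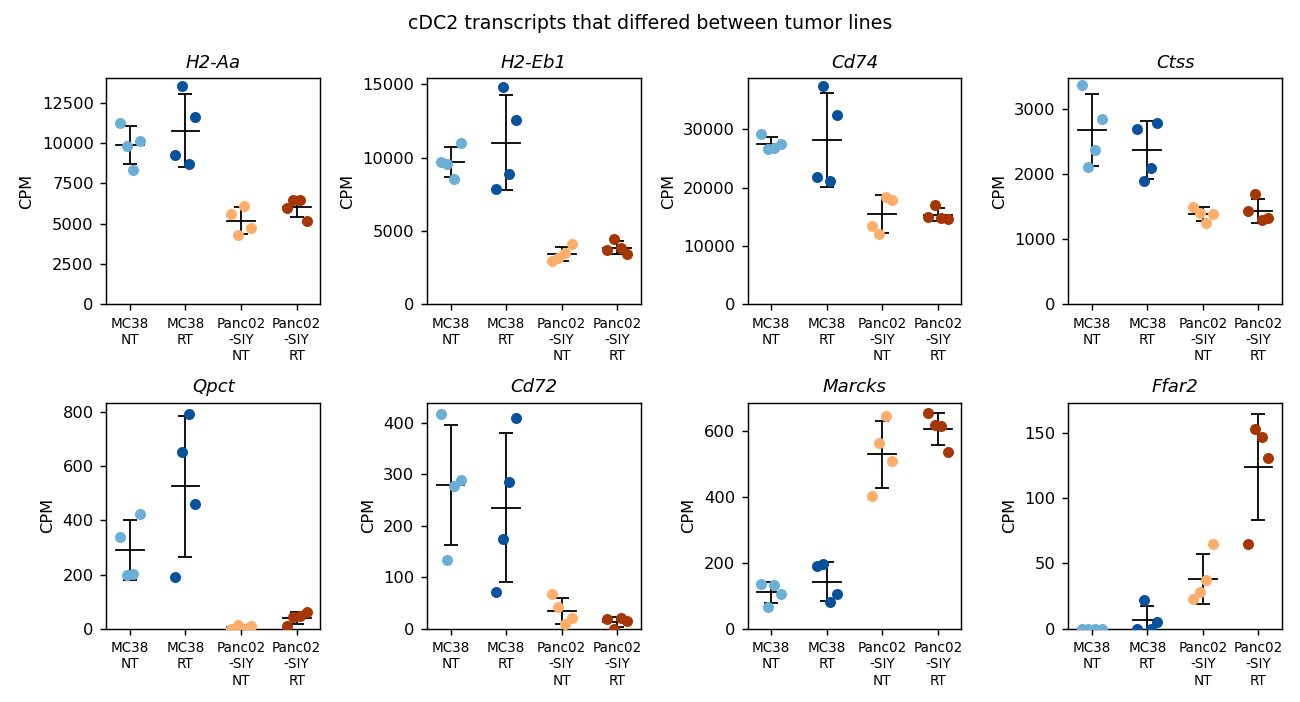
CPM in cDC2 of 8 genes that differed between tumor lines, by group, with 1 point per library and the mean and SD of 4 libraries; the 5 cells above 40000 UMIs were left out, and the genes were chosen after their values were seen. H2-Aa, H2-Eb1, Cd74, Ctss, Qpct and Cd72 were higher in MC38 and Marcks and Ffar2 higher in Panc02-SIY, with no overlap between the lines in either treatment. Of the 5770 genes of the added fit, 3.93% in untreated and 2.56% in irradiated tumors had every MC38 library higher. Every MC38 library was lower for 4.87% in untreated and 10.3% in irradiated tumors.

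A further comparison asked what 12 Gy did to cDC2 after 24 h. With so few libraries, a gene that did not pass is not shown to be unchanged. In MC38, 17 of 8576 genes were higher after radiation and none lower (0.198%; 314 genes had an unadjusted p below 0.05). The largest were Gzmc (log2 fold change 11.93 ± 0.55, SE, edgeR adjusted p = 1.42e-08), Xcl1 (8.86 ± 0.71, adjusted p = 1.35e-07), Nrgn, Thy1, Serpinb6b, Gzmd and Gzmb, genes of which Gzmb, Gzmc, Gzmd and Xcl1 are known from cytotoxic lymphocytes. The Gzmc value ran from 11.1 to 14.1 and the Xcl1 value from 8.05 to 10.99 without 1 library, the ends falling on untreated MC38 replicates 3 and 4 for Gzmc and 3 and 1 for Xcl1. Gzmc had 8249 CPM in irradiated replicate 4 and 0 CPM in the other 3 irradiated libraries, and 2089 of its UMIs lay in the 1 deep cell described above. In the added fit without that cell, 3 of 5770 genes passed (0.052%; 296 had an unadjusted p below 0.05), and Phlda3 was the only gene that passed in both fits.

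In Panc02-SIY, 2 of 8576 genes passed (0.0233%; 413 had an unadjusted p below 0.05). Fabp5, a fatty acid-binding protein, was higher (3.30 ± 0.56, edgeR adjusted p = 0.0781) and Rnd3 lower (-1.99 ± 0.36, adjusted p = 0.0781). Leaving out 1 library lost the Fabp5 call in 7 and the Rnd3 call in 8 of 10 fits, and neither was called over all libraries. Untreated replicate 2, which had too few cells for the 10-library fit, had 536 CPM of Fabp5, above all irradiated libraries (148 to 515 CPM in all members). In the added fit no gene passed in Panc02-SIY (0.0%; 251 had an unadjusted p below 0.05), with adjusted p-values of 1.00 for both genes. The test of whether the radiation effect differed between tumor lines called 1 gene, Rnd3 (log2 difference 4.20 ± 0.62, edgeR adjusted p = 0.00862, and 0.129 without untreated MC38 replicate 3; 0.0117%), and none in the added fit (0.0%; 211 genes had an unadjusted p below 0.05), where Rnd3 had a log2 difference of 2.84 ± 0.92.

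Targets of p53, the transcription factor that DNA damage activates, were the list with the highest median in both tumor lines in the added fit. Of the 3 genes called in MC38 in that fit, Phlda3 and Ccng1 belong to the p53 list. Phlda3, an inhibitor of AKT signaling, had no count in the 593397 UMIs of untreated MC38 cDC2 and 71.7, 65.5, 239 and 73.5 CPM in the irradiated libraries. Every irradiated library was above every untreated one, and the irradiated group stood at least 22.1-fold above the level that 3 counts over the untreated group would give. That bound was 14.2-fold without irradiated replicate 3 and 10.985-fold without untreated replicate 3. Its fitted adjusted p was 0.0213 in the 10-library fit and 0.0253 in the added fit. The call was lost with DESeq2 (adjusted p = 0.201) and, in edgeR, with every barcode copy kept (0.129), with at least 20 H2-Ab1 UMIs (0.195), with Cd209a required (0.894), in the 10 libraries without the deep cells (0.590), and without untreated MC38 replicate 1 (0.121) or replicate 3 (0.293). For Phlda3, MC38 RT against MC38 NT, the direction was the same in each of these. Ccng1, cyclin G1, had 72.0, 33.1, 26.8 and 32.0 CPM in untreated and 191, 109, 216 and 173 CPM in irradiated MC38 cDC2 and also did not overlap (log2 fold change 2.12 ± 0.44, adjusted p = 0.0596 in the added fit; 1.99 ± 0.56, adjusted p = 0.404 in the 10-library fit). Btg1, an antiproliferative factor outside the list, averaged 637 ± 178 CPM in untreated and 1670 ± 603 CPM in irradiated cDC2 (SD, n = 4 each; 1.39 ± 0.28, adjusted p = 0.0596 in the added fit; adjusted p = 1.00 in the 10-library fit).

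Other p53 targets had the same direction in MC38 without passing. Bax, which promotes apoptosis at mitochondria, had 230, 132, 254 and 95.9 CPM in untreated and 502, 327, 568 and 467 CPM in irradiated cDC2 (1.34 ± 0.32, adjusted p = 0.216 in the added fit). Cdkn1a, the cell cycle inhibitor p21, had 864, 529, 364 and 775 CPM in untreated and 2246, 1200, 2874 and 966 CPM in irradiated cDC2 (1.54 ± 0.45, adjusted p = 0.739 in the added fit). Of 20 p53 targets tested in the added fit, 17 had a log2 fold change above 0 in MC38, with a median of 1.16 against -0.05 over all genes, and 5 (Cdkn1a, Ccng1, Phlda3, Bax and Rps27l) had every irradiated library above every untreated one. Over all genes 1.01% had that separation. In the 10-library fit 26 of 34 tested members were above 0, with a median of 0.61.

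In Panc02-SIY no p53 target passed, where 0.0233% of all genes passed in the 10-library fit and 0.0% in the added fit. The median was 0.83 in the added fit against 0.06 over all genes, again with 17 of 20 members above 0, and 0.89 with 26 of 34 above 0 in the 10-library fit. Ccng1 had 22.4, 42.3, 64.6 and 64.9 CPM in untreated and 73.8, 79.3, 176 and 88.2 CPM in irradiated cDC2, and Bax had 134, 197, 138 and 141 CPM in untreated and 295, 249, 261 and 199.3 CPM in irradiated cDC2. Both, with Trp53inp1, separated the groups completely, as did 2.48% of all genes. Phlda3 did not, with 0, 14.1, 9.23 and 0 CPM against 73.8, 0, 49.0 and 17.1 CPM. The differences between tumor lines in these radiation effects were not called (Phlda3 log2 difference 4.93 ± 2.25, adjusted p = 0.998 in the added fit). Between irradiated tumors, 4 of 20 p53 targets passed in the added fit (Mdm2, Phlda3, Bax and Btg2), where 4.82% of all genes passed. In the 10-library fit 2 of 34 passed (Btg2 and Trp53i11), where 1.78% of all genes passed. All of these were higher in MC38. The p53 list was chosen with earlier results of these data known, so its counts are a description.

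**Figure D4:**
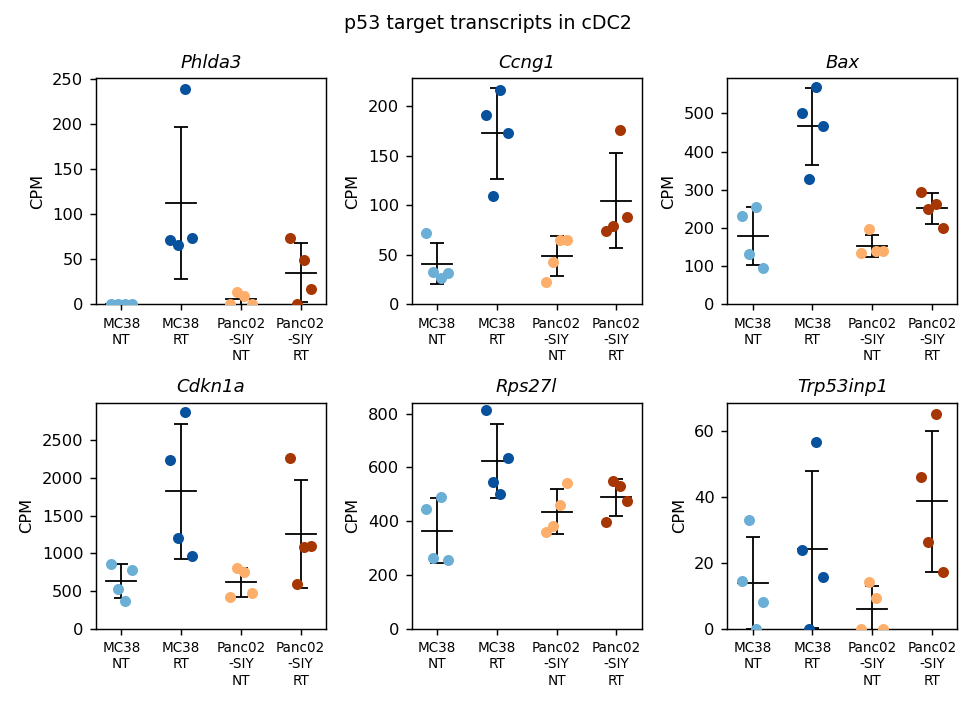
CPM in cDC2 of 6 p53 target genes by group, with 1 point per library and the mean and SD of 4 libraries; the 5 cells above 40000 UMIs were left out, and the genes were chosen after their values were seen. Phlda3, Ccng1, Bax, Cdkn1a and Rps27l separated irradiated from untreated libraries in MC38, and Ccng1, Bax and Trp53inp1 did so in Panc02-SIY. Over all genes, 1.01% in MC38 and 2.48% in Panc02-SIY separated in that direction.

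Promoter sequence is shown for 3 of the 5 p53 targets that separated the MC38 groups, chosen after their values were seen. Cdkn1a and Rps27l are not shown. The aim was to show whether the window before the start holds a p53 decamer, the unit that p53 binds in pairs. The sequences are the 200 bases from 250 to 51 before the RefSeq start in GRCm38.p6, written 5′ to 3′ on the strand of the gene, with the decamer in capitals. The windows are chr1:135765835-135766034 (plus strand) for Phlda3, chr11:40755337-40755536 (minus strand) for Ccng1 and chr7:45466949-45467148 (minus strand) for Bax.
Phlda3: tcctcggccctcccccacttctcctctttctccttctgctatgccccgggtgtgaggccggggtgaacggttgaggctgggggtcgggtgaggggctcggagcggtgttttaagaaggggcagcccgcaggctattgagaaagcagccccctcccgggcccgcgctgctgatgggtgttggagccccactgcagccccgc
Ccng1: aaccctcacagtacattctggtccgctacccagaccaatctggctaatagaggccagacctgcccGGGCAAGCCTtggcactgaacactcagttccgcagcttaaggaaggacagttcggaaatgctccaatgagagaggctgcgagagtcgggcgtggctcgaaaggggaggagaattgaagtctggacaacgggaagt
Bax: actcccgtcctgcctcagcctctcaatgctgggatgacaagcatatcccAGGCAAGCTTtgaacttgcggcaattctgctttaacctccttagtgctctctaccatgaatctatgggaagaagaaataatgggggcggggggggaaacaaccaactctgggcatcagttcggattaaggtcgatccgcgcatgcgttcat
Ccng1 had a decamer 185 bases and Bax 201 bases before the start, and Phlda3 had none in this window. A decamer was present on either strand in 9 of 31 p53 list promoters that could be matched (29.0%), counted from 250 bases before to 50 after the start, and in 2261 of 27025 promoters of the same length (8.37%). A match is a description of letters and not evidence of binding.

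Interferon-stimulated genes, which type I interferon induces, had no member that passed after radiation in either tumor line or fit. Few genes of any kind passed (0.052% in MC38 and 0.0% in Panc02-SIY in the added fit), so this absence does not set the list apart. Of 57 tested in the added fit, 51 had a log2 fold change above 0 in MC38 (median 0.47) and 38 in Panc02-SIY (median 0.22). The medians over all genes were -0.05 and 0.06. In the 10-library fit the medians were 0.28 and 0.07 over 59 genes, against 0.01 and 0.04 over all genes. Ifitm3, an antiviral membrane protein, averaged 3150 ± 1616 CPM in untreated and 4103 ± 247 CPM in irradiated MC38 cDC2, and 3597 ± 683 and 3532 ± 507 CPM in Panc02-SIY (SD, n = 4 each). The letters GAAANNGAAA, a core of the interferon-stimulated response element, were found on either strand in 28 of 48 matched promoters of the list (58.3%) and in 943 of 27025 promoters (3.49%).

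No gene of MHC class II or class I presentation passed after radiation in either tumor line or fit. H2-Aa, H2-Eb1 and Cd74 differed between untreated and irradiated libraries by log2 fold changes of 0.02 ± 0.31, 0.15 ± 0.24 and 0.00 ± 0.25 in the MC38 line. The same genes differed by 0.25 ± 0.23, 0.20 ± 0.19 and -0.10 ± 0.19 in the Panc02-SIY line. Of 27 DC maturation genes, Tnfrsf9 passed in MC38 and none in Panc02-SIY, where 0.198 and 0.0233% of all genes passed. The Tnfrsf9 rise was not called in the added fit, in which none of 20 maturation genes passed (0.052 and 0.0% of all genes). The maturation list had medians of 0.46 in MC38 and 0.33 in Panc02-SIY in the added fit, and -0.18 and 0.45 in the 10-library fit. The lists of cDC2 identity, monocyte, macrophage, Toll-like receptor and nucleic acid sensor, C-type lectin, cytokine, immediate early, cell cycle, and glycolysis and hypoxia genes also had no member that passed after radiation. The sign of the median depended on the fit for the maturation, monocyte and cDC2 identity lists in MC38, for the cytokine, C-type lectin, Toll-like receptor, immediate early, and glycolysis and hypoxia lists in Panc02-SIY, and for the cell cycle list in both lines (1.29 and 1.73 in the 10-library fit, -0.51 and -0.57 in the added fit).

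**Figure D5:**
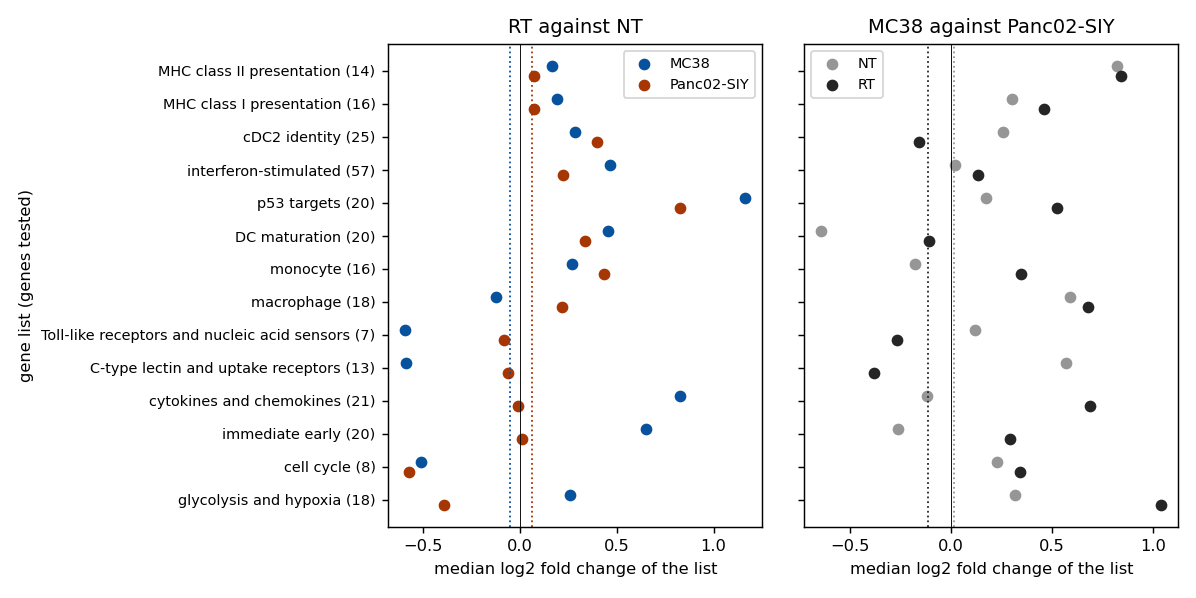
Median log2 fold change of 14 gene lists in cDC2, irradiated against untreated (left) and MC38 against Panc02-SIY (right), in the added fit over all 16 libraries without the 5 deep cells; dotted lines are the medians over all 5770 genes tested and the number after each list is its genes tested. The p53 list had the highest median after radiation in both tumor lines (1.16 and 0.83). The MHC class II presentation list had a median above 0 for MC38 against Panc02-SIY in both treatments (0.82 and 0.84).

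The last comparison asked whether the radiation response of cDC2 differed from that of other myeloid cells of the same libraries. Panc02-SIY cDC2 held a median of 12308 UMIs and C1q macrophages of that line 1786, and the part of this depth gap was not tested. In Panc02-SIY, 3 genes differed from C1q macrophages. Mgl2 was higher in cDC2 by 10.65 ± 1.41 on the log2 scale (edgeR adjusted p = 0.000491), while Plac8 (-3.12 ± 0.41, adjusted p = 0.000491) and Ptgs2, the inducible cyclooxygenase (-2.21 ± 0.45, adjusted p = 0.0769), had a lower log2 fold change in cDC2 than in macrophages. The Mgl2 value rested on cDC2 libraries at 0 CPM, namely untreated replicates 3 and 4, and its size depends on the prior count. Against cDC1, Dcn was the only gene called in Panc02-SIY (7.94 ± 1.09, edgeR adjusted p = 0.00335), and its cDC2 counts lay only in untreated replicate 4 (291 CPM) and irradiated replicate 2 (900 CPM), libraries that held deep cells. In MC38 the test against C1q macrophages had 1 irradiated library, replicate 4, which held the Gzmc-rich cell. The largest log2 differences among called genes were 13.003 for the histone gene Hist1h3c, 12.8 for F2r and 11.6 for Rad51ap1. Far fewer genes were called without the deep cells. Phlda3, Ccng1 and Bax were not called in either tumor line (edgeR adjusted p = 0.610 for Phlda3 in MC38 and 1.00 for the others).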

How the data were processed

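The deposited files were UMI count matrices per library, which the authors made from 10x 3′ v3.0 reads. The submitters' processing notes name bcl2fastq 2.20.0, Cell Ranger 3.1.0 and mm10. Barcodes passed with 500 or more genes and no more than 10% mitochondrial UMIs (22305 of 28678 called), and a barcode found in several libraries of 1 tumor line was counted once (16350 kept). No doublet caller was run here. Counts of cDC2 were summed per library, and libraries with at least 5 cells entered edgeR 4.0.16 (limma 3.58.1, R 4.3.3) with TMM scaling, a filter of 3 counts in enough libraries and 15 in all, a robust quasi-likelihood test over 4 groups, Benjamini-Hochberg adjustment, and calls where adjusted p was under 0.1 with over 1.3-fold change. Shares were compared by exact permutation over libraries, adjusted over 4 comparisons (Python 3.11.15, scipy 1.17.1).

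The named genes were drawn from gate genes, the 8 highest and 8 lowest called genes per contrast whose libraries did not overlap (without predicted, mitochondrial, ribosomal and receptor genes), called members of 14 lists or the 4 most abundant where none was called, and the largest interactions, and not every such gene is printed. Members and lists were chosen with earlier results of these data known. Settings over all 16 libraries, without cells above 40000 UMIs, with both, and on barcodes found in 1 library were added after the data were seen, as were the promoter genes, the library separation counts and the floors of 3 counts. DESeq2 1.42.0, other filters, thresholds, gates, barcode rules, thinning to 2000 UMIs, a replicate block and leaving out each library were alternatives. Intervals and floors cover counting error only. The scripts were tested on simulated data.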

Additional observations from a re-analysis of the deposited data

Results flagged for a closer look

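In 9 of 100 groups of 4 libraries examined, 1 library stood apart by Dixon's criterion, where chance gives about 1 in 20. All values are CPM without the 5 deep cells. Phlda3 was high in irradiated MC38 replicate 3 (239 CPM). Ccng1 was high in untreated MC38 replicate 1 (72.0 CPM) and in irradiated Panc02-SIY replicate 3 (176 CPM). Bax was high in untreated Panc02-SIY replicate 2 (197 CPM), and Cd74 in irradiated Panc02-SIY replicate 2 (17105 CPM). Fabp5 was high in untreated Panc02-SIY replicate 2 (536 CPM) and low in irradiated replicate 1 (148 CPM). Cd209a, a gate gene, was high in irradiated Panc02-SIY replicate 1 (2022 CPM), and Sirpa in irradiated MC38 replicate 1 (263 CPM), which held 2 cells.

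Other values stood out because a radiation effect differed between tumor lines or cell types. Rnd3 had a log2 difference of 4.20 between the tumor lines, and the cDC2 share of gated DCs one of -24.7 points, which turned in direction without Ly6c2 or Fcgr1 cells (5.42 points in MC38 and 3.95 in Panc02-SIY). Against C1q macrophages the log2 differences in MC38 were 13.003 for Hist1h3c, 12.8 for F2r and 11.6 for Rad51ap1, which rest on the 1 irradiated library with the Gzmc-rich cell. In Panc02-SIY they were 10.65 for Mgl2, -3.12 for Plac8 and -2.21 for Ptgs2. Against cDC1 the Panc02-SIY difference was 7.94 for Dcn. The causes were not tested.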

How the results depend on the processing

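Counts of called genes depended strongly on the processing, and the causes were not tested beyond the cells and libraries that each setting leaves out. For radiation in MC38 (17 genes) the counts were 5 with DESeq2, 47 without a filter, 60 with only the groups compared, 0 with every copy of a barcode kept, with H2-Ab1 of at least 20 UMIs, with Cd209a required and without the deep cells, 3 after thinning, 2 over all 16 libraries and 3 with both added settings. For Panc02-SIY (2 genes) they were 5 with DESeq2, 37 without a filter, 1 with H2-Ab1 of at least 20 UMIs, with Cd209a required and after thinning, and 0 at an adjusted p below 0.05, with only the groups compared, with every copy kept, without Ly6c2 or Fcgr1 cells, over all 16 libraries, without the deep cells and with both. Between untreated tumors (115) they were 175 with DESeq2, 518 without a filter, 66 at an adjusted p below 0.05, 182 with every copy kept, 30 after thinning, 238 over all 16 libraries, 211 without the deep cells and 194 with both. Between irradiated tumors (153) they were 263 without a filter, 338 with every copy kept, 22 after thinning and 278 with both. The tumor by radiation interaction (1) gave 5 with DESeq2 and without a filter, 0 with every copy kept, with Cd209a required, over all 16 libraries and with both, and 2 without the deep cells. Against C1q macrophages MC38 (137) gave 1 after thinning and 14 without the deep cells, and Panc02-SIY (3) gave 11 and 17. Against cDC1 (1) the counts were 0 at a minimum count of 10, 2 after thinning and 14 without the deep cells. With the replicate number as a block the counts were 8 for radiation in Panc02-SIY and 83 between irradiated tumors. Deviations of same-numbered libraries from their group means had correlations over genes from -0.0418 to -0.0049 in MC38 and from -0.166 to 0.0940 in Panc02-SIY. Some of these sums hold only 1 or 2 cells, so the correlations cannot tell whether the numbers pair libraries. Replicate 4 had the most UMIs in each group (9833668 and 10121198 in untreated and irradiated MC38, 43776342 and 26824513 in untreated and irradiated Panc02-SIY). Leaving out 1 library gave 6 to 26 genes for radiation in MC38, 0 to 22 in Panc02-SIY, 52 to 272 and 109 to 217 between untreated and irradiated tumors, 0 to 3 for the interaction, 83 to 113 and 1 to 61 against macrophages and 0 to 97 against cDC1. The MC38 change in the share of barcodes (-0.553 points) was 0.231 without Ly6c2 or Fcgr1 cells, 0.485 after thinning and -1.18 to 0.0990 without 1 library, with the last value without untreated replicate 3. The Panc02-SIY rise (0.583) was 0.103 (adjusted p = 0.800, exact permutation), 0.456 after thinning and 0.559 on barcodes found in 1 library (adjusted p = 0.114 for both, exact permutation), and 0.526 to 0.671 without 1 library. The MC38 change in the share of gated DCs (-5.74 points) was 5.42, 35.1 (3 irradiated libraries against 4) and 8.33 (2 against 1, with no spread) under the same settings and -12.9 to -1.78 without 1 library, and the Panc02-SIY change (19.0) was 3.95, 44.0 and 18.1, and 14.6 to 23.8 without 1 library. Of the alternatives for single named genes, 1320 kept direction and call, 424 lost the call and 1 reversed (Usp18, MC38 RT against Panc02-SIY RT, at -0.0279 after thinning). Leaving out irradiated MC38 replicate 4, or cells with Ly6c2 or Fcgr1 in MC38, could not be fitted.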
